A study of Mus musculus with 3 samples.

Results

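The macrophage and other immune nuclei of mouse brown adipose tissue (BAT) were 171 of the 36281 nuclei kept in 3 single-nucleus RNA libraries, or 0.471% (0.404 to 0.547). They were chosen by their own counts. Each nucleus was scored by its unique molecular identifiers (UMIs, which count each captured RNA molecule once) of 3 gene groups. The immune group held the 9 genes Ptprc, Mrc1, F13a1, Csf1r, Cd74, H2-Ab1, Lyz2, C1qb and Dock2. The endothelial group held Pecam1, Flt1, Kdr, Ptprb, Cyyr1 and Adgrl4, and the adipocyte group held Adipoq, Plin1, Pparg, Cidea and Ppara. A member had at least 4 immune UMIs, and at least 2 times as many immune UMIs as endothelial UMIs and as adipocyte UMIs. Barcodes with fewer than 200 detected genes, or with over 50% of their UMIs from mitochondrial genes, had been set aside first. The 3 libraries were made from BAT of adult wild type C57Bl6 mice and differ in treatment. One was untreated, one is labelled as sham-operated, and in one the sympathetic nerves to the tissue had been cut (denervated BAT, D-BAT). Per the study's methods, the untreated and the denervated library each hold nuclei of several male mice, sorted from the floating layer of digested tissue, in which brown adipocytes (BAs) and pieces of vessels collect, so immune cells that sank were not sampled. The nerves were cut on 1 side only, and the methods do not describe a sham library for this assay. A supplementary scheme of the study places sampling of the denervated library 3 days after surgery and lists tamoxifen for those mice. Neither is described for the untreated library, so their part in a difference cannot be told apart. The study asks which signals pass between endothelial cells (ECs) and BAs, and it discarded its immune clusters as contaminating cells.

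Macrophages are phagocytes that live in every tissue. They take up dead cells, lipid and iron, break them down in lysosomes, and can show peptides to T cells on MHC class II molecules. In adipose tissue they lie along vessels, nerves and dying adipocytes, and the scavenger receptors Mrc1 (CD206) and Cd163 mark many of the resident ones. Macrophages in BAT have also been studied as neighbours of sympathetic nerves, whose noradrenaline drives heat production.

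The untreated library gave 56 members of 11792 kept nuclei, or 0.475% (0.359 to 0.616, exact binomial 95% interval, counting error only). The sham library gave 31 of 14027, or 0.221% (0.150 to 0.314). The denervated library gave 84 of 10462, or 0.803% (0.641 to 0.993). The share was thus highest in the denervated and lowest in the sham library, and these 2 intervals lay apart from that of the untreated library under this rule. Depth touches this order, because the rule asks for a fixed number of UMIs. The members had a median of 656, 810 and 563 UMIs in the untreated, sham and denervated libraries, and all other nuclei had 998, 810 and 704. After every nucleus had been thinned to 500 UMIs, with shallower nuclei left out, the shares were 0.392% (38 of 9691 nuclei), 0.206% (22 of 10666) and 0.612% (44 of 7188), in the same order. The interval of the untreated share, 0.278 to 0.538, then overlapped both others. With 1 library a condition there was no replicate, and the comparisons below therefore carry no p-value. All intervals cover counting error only, and a difference between libraries cannot be told apart from one between preparations.

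Many denervated members lay near the threshold. Of the members, 5 untreated, 2 sham and 20 denervated nuclei had exactly 4 immune UMIs, and 3, 2 and 25 nuclei with exactly 3 immune UMIs met the remaining conditions but stayed outside. The median number of immune UMIs was 10 in untreated, 11 in sham and 6 in denervated members, and the maximum was 102, 60 and 43. Among nuclei with at least 4 immune UMIs, the limits on endothelial and adipocyte UMIs, which here stood in for a doublet caller after the sorter's gate against doublets, removed 7 of 63, 32 of 63 and 11 of 95. The removal was heaviest in the sham library. Before these limits the shares were 0.534% (0.411 to 0.683), 0.449% (0.345 to 0.574) and 0.908% (0.735 to 1.11), so the untreated and sham intervals overlapped and the denervated share lay above both. With at least 6 immune UMIs, the members were 0.416% (0.308 to 0.549), 0.185% (0.121 to 0.272) and 0.526% (0.396 to 0.684) of kept nuclei, and the untreated and denervated intervals overlapped. No endothelial and no adipocyte UMI of the rule was found in 32, 13 and 44 members. Between any pair of libraries, 251 to 278 cell barcodes were shared, at most 1.85% of the smaller table, and 0 member barcodes were shared.

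**Figure D1:**
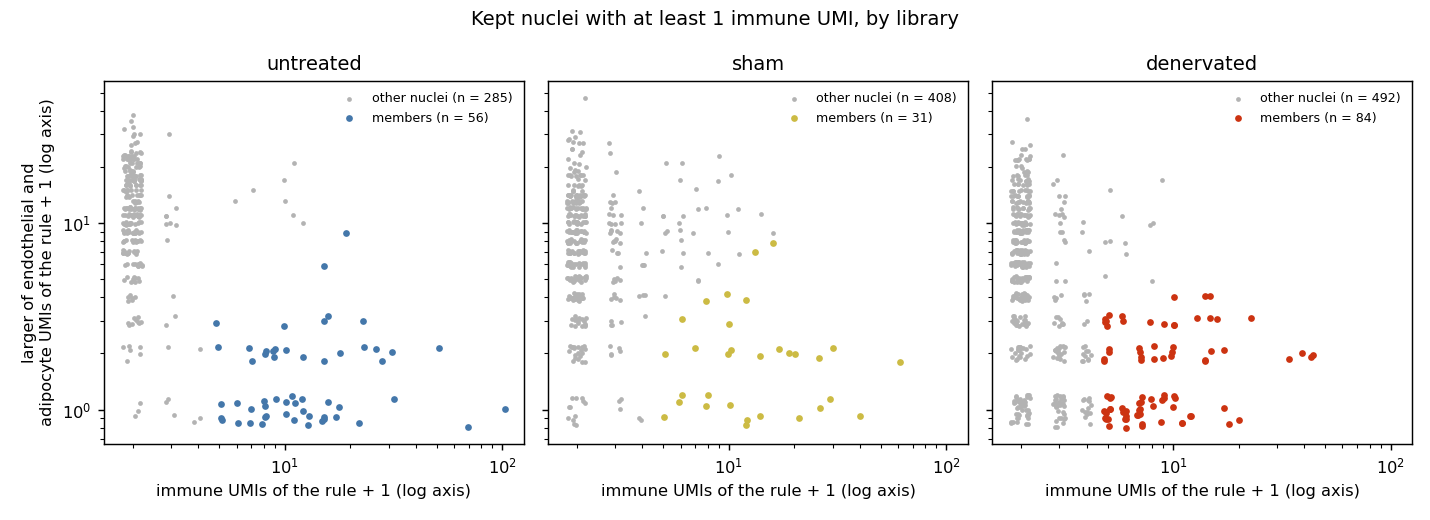
Kept nuclei with at least 1 immune UMI, 1 panel a library. The x axis gives the immune UMIs of the rule plus 1 and the y axis the larger of the endothelial and adipocyte UMIs of the rule plus 1, both on log axes with a small jitter. Coloured points are the 56 untreated, 31 sham and 84 denervated members, and grey points are the nuclei outside. The denervated members crowd at the low end, with a median of 6 immune UMIs against 10 and 11.

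Other facts of the libraries move with these groups and stand here once. The members held 45235, 26083 and 55235 UMIs in the untreated, sham and denervated libraries, and the deepest single member gave 5.73%, 5.97% and 3.33% of them. Mitochondrial genes took 6.19%, 8.97% and 2.89% of member UMIs and 5.32%, 9.12% and 2.54% of the UMIs of all other nuclei. Each level is given as CPM, the rate of a gene among all UMIs of the members or of the other nuclei, with an exact 95% Poisson interval where one is printed. Each log2 ratio is of 2 CPM values and has an exact conditional binomial 95% interval.

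The genes of the rule describe what was selected, and they support nothing further. Mrc1, the mannose receptor (GRCm38 chr2:14229392-14332057), had 2166, 1189 and 1919 CPM in the untreated, sham and denervated members, and 5.21 to 16.3 CPM in other nuclei. At least 1 Mrc1 UMI was found in 67.9%, 41.9% and 56.0% of members. Csf1r, the receptor for the growth factor on which macrophages depend, was detected in 64.3%, 51.6% and 44.0% of members. F13a1, the A subunit of coagulation factor XIII, which resident macrophages express, was detected in 58.9%, 51.6% and 42.9%. Cd74, the invariant chain that guides MHC class II molecules, was detected in 60.7%, 83.9% and 33.3%. In other nuclei, Cd74 was detected in 0.435%, 0.757% and 0.501%, and Mrc1 in 0.597%, 0.672% and 1.07%. Both genes were thus rare outside the members. All 4 defining markers were present in all 3 libraries, with Cd74 leading in the sham members and Mrc1 in the untreated and denervated ones by the share of nuclei.

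The label was next set beside markers the rule had not used. A list of 15 macrophage markers outside the rule (among them Adgre1, Cd68, Cd163, Maf, Mertk, Msr1, Cd14, C1qa, C1qc, Stab1, Fcgr1 and Cx3cr1) had a summed level of 7892, 5521 and 6880 CPM in the untreated, sham and denervated members, and 147, 295 and 171 CPM in other nuclei. None of the 15 was at 0 in the untreated and denervated members, and Msr1, Cd14 and Fcgr1 were at 0 in the sham members. At least 1 UMI of the list was found in 85.7%, 83.9% and 86.9% of members. Each member was also given the marker list with most UMIs, of the macrophage, monocyte, dendritic cell, B cell, T cell, natural killer (NK) and innate lymphoid, mast cell and granulocyte lists, if it had at least 2 UMIs of that list. The macrophage list, to which the rule genes Mrc1, F13a1, Csf1r, Lyz2 and C1qb were added, led in 154 of 171 members (90.1%, 84.6 to 94.1). By library these were 50 of 56 untreated, 24 of 31 sham and 80 of 84 denervated members. Since 5 genes of the rule count here, much of this lead was built into the selection. With the genes of the rule left out of every list, the macrophage list led in 39, 19 and 52 members of the untreated, sham and denervated libraries, or 110 of 171 (64.3%). The monocyte list then led in 4, 1 and 6 members, the dendritic cell list in 2, 3 and 3, the B cell list in 2, 2 and 1, the NK and innate lymphoid list in 1, 0 and 1 and the mast cell list in 0, 1 and 0, and 8, 5 and 21 members stayed unassigned.

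With the rule genes counted, the remaining 17 members were mixed. Dendritic cell markers led in 2, 2 and 2 members of the untreated, sham and denervated libraries, B cell markers in 1, 2 and 1, NK and innate lymphoid markers in 1, 0 and 1, and monocyte markers in 1, 0 and 0. None of the lists for T cells, mast cells and granulocytes led in any member with the rule genes counted, and 4 members stayed unassigned. T cell markers had 2, 1 and 4 UMIs in all members of the untreated, sham and denervated libraries, with 0 UMIs of the T cell receptor chain Cd3e. Granulocyte markers, of which 6 of 12 were listed for all 3 libraries, had 4, 2 and 7 UMIs. That was 88.4, 76.7 and 127 CPM, against 3.06, 4.31 and 8.48 in other nuclei. Of the mast cell list, Hpgds, which makes prostaglandin D2 and is also expressed by macrophages, gave 14 of 15, 5 of 6 and 12 of 13 UMIs. Genes of division (Mki67, Top2a and 8 others) had 2, 3 and 4 UMIs. T cell markers had 44.2, 38.3 and 72.4 CPM in members and 50.4, 105 and 57.5 in other nuclei. T cell and granulocyte markers thus had few UMIs in the members of all 3 libraries, and the rule held no gene of these lists. Macrophage markers outside the rule led in more members than any other list. Members had been admitted through Mrc1, F13a1, Csf1r, Lyz2 and C1qb, so this lead too was in part built into the selection. They are called macrophage-like as a description only, with other and unassigned nuclei among them.

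Genes outside the rule also had a higher level in the members than in all other nuclei in every library. Of 981 genes with at least 5 UMIs in the members of each library, 315 (32.1%) had a CPM at least 2-fold above that of other nuclei in all 3 libraries and 25 had one at least 2-fold below. This floor applied to the members only, so genes low or absent in them could not enter. The excess of 315 over 25 is therefore not a result. The 20 genes outside the rule with the largest ratios were Retnla, Tifab, Ccr2, Cybb, C1qc, Alox5ap, H2-Aa, Ms4a6c, H2-Eb1, Cyth4, C1qa, Laptm5, Clec4a1, Clec12a, Pf4, Coro1a, Cd37, Ccl6, Nfam1 and Mir142hg. These 20 were ranked by this same ratio, so their position among the 315 is not a result. The smallest of the 3 log2 ratios ran from 6.60 for Mir142hg to 8.92 for Retnla.

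Of the complement genes, C1qa, C1qb and C1qc encode the chains of C1q, which tags debris for uptake and is made mainly by macrophages. C1qa (chr4:136895917-136898803) had 38, 15 and 44 UMIs in the members, or 840 CPM (595 to 1153), 575 (322 to 949) and 797 (579 to 1069) in the untreated, sham and denervated libraries. C1qc had 1680, 959 and 1032 CPM. The untreated level of C1qc was the highest, with log2 ratios of −0.70 (−1.22 to −0.19) for denervated and −0.81 (−1.52 to −0.14) for sham against untreated members. The 3 C1qa intervals overlapped. In other nuclei, C1qa had 0.347, 1.24 and 5.30 CPM.

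Of the receptors and signalling genes, Ccr2, the chemokine receptor by which monocytes enter tissue, had 376, 613 and 579 CPM in the untreated, sham and denervated members, from 17, 16 and 32 UMIs. Laptm5, a lysosomal membrane protein of blood cells, had 951, 345 and 905 CPM and was detected in 41.1%, 22.6% and 26.2% of members. Cybb, the catalytic subunit of the phagocyte NADPH oxidase, had 685, 345 and 724 CPM. Both Laptm5 and Cybb were lowest in the sham members. The lectin receptor genes Clec4a1 and Clec12a, the platelet factor 4 gene Pf4, the chemokine gene Ccl6 and the actin-binding Coro1a had 127 to 688 CPM in the members. Spi1, which encodes the myeloid transcription factor PU.1, is not among the 20 and had 464, 307 and 561 CPM, from 21, 8 and 31 UMIs, against 0.764, 0.949 and 7.30 CPM in other nuclei.

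Retnla (chr16:48842551-48844461), a secreted protein of alternatively activated macrophages, led the ranking, but from few nuclei. Its level was 531, 1879 and 525 CPM in the untreated, sham and denervated members, with a UMI in 14.3%, 16.1% and 3.57% of them. A single sham member gave 33 of the 49 sham UMIs, and a single denervated member gave 21 of the 29 denervated ones. The difference between libraries in Retnla therefore rested on single nuclei.

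**Figure D2:**
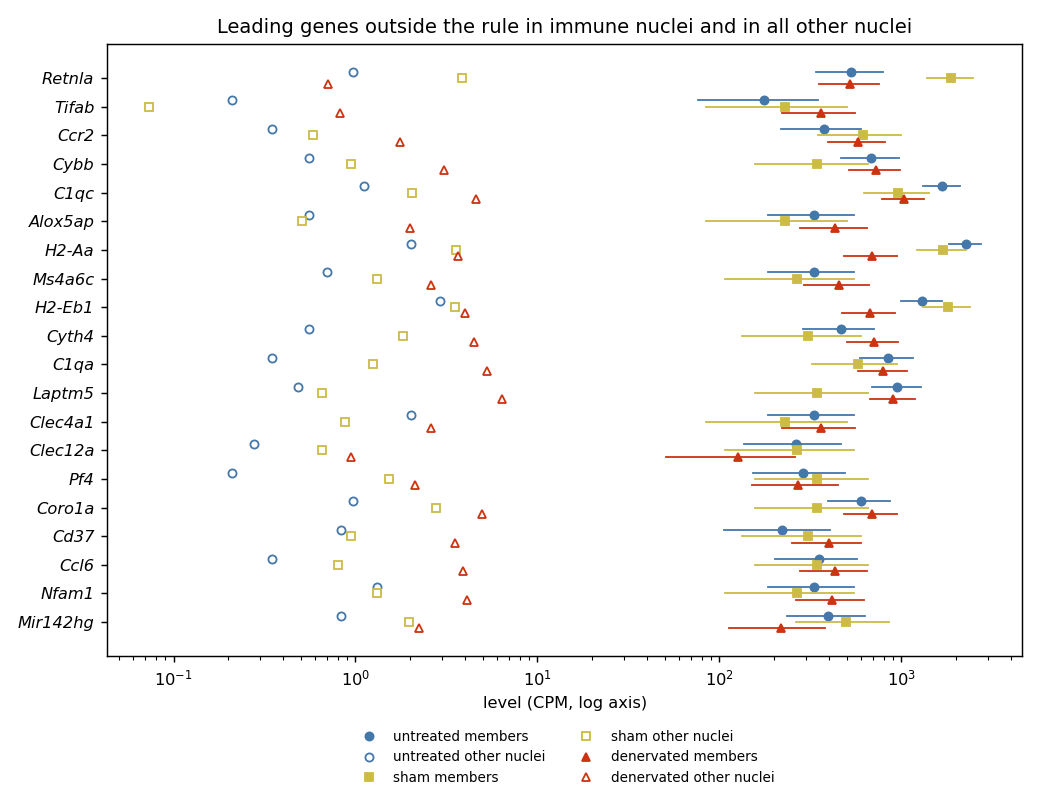
Level of the 20 leading genes outside the rule, in CPM on a log axis, with filled symbols for members and open symbols for all other nuclei of the same library. Lines are exact 95% Poisson intervals for counting error. Members lie at 127 to 2255 CPM and the other nuclei at 0.0730 to 6.36 CPM, with no overlap for any gene.

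The promoters of these leading genes are shown for the letters that PU.1, the factor above, is known to favour. The bases before each RefSeq start (GRCm38.p6) were searched for GAGGAAGT or its reverse complement ACTTCCTC, within 250 bases. Of the 17 leading genes with an entry, 4 held it, or 23.5%, against 755 of all 27025 genes with an entry, or 2.79%. The stretches of these 4 follow, 5′ to 3′ on the gene's strand, each ending before the first base that GENCODE places in an exon of the gene. The capitals mark the 8 matching letters, all of them on the reverse strand. For Cd37, where GENCODE has an exon upstream of the RefSeq start, only the match with its flanks is given.
Pf4, chr5:90772185-90772434, plus strand: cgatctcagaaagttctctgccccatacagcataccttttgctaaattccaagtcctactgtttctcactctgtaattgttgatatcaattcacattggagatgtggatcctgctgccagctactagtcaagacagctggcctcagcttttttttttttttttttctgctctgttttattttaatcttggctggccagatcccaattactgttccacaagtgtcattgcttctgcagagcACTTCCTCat
C1qc, chr4:136893066-136893164, minus strand: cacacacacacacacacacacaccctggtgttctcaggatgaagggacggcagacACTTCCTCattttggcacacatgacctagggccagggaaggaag
Retnla, chr16:48842359-48842550, plus strand: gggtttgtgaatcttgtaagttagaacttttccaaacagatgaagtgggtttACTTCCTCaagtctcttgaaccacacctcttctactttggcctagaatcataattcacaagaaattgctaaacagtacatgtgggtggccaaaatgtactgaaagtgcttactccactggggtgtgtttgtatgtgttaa
Cd37, chr7:45238846-45238875, minus strand: acccccccggaACTTCCTCtttctctgccg
The last matching letter lay 3 bases before the start in Pf4, 18 in Cd37, 188 in C1qc and 191 in Retnla. A match is a description of letters, and no binding was measured in these libraries.

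The comparison of denervated with untreated members asks how macrophage-like nuclei differed once the nerves had been cut. Of 1597 genes with at least 10 UMIs in the members of either library, 327 (20.5%) were at least 2-fold higher in the denervated members and 215 (13.5%) at least 2-fold lower, with a median log2 ratio of 0.20 over all 1597 genes. Against the sham members the numbers were 460 higher (32.5%) and 115 lower (8.12%) of 1417 genes, with a median of 0.54. Many of these genes had few UMIs. Those past 2-fold with an interval that excluded 0 were 163 higher and 126 lower against untreated members, and 152 higher and 90 lower against sham members. The median of these same genes in all other nuclei was 0.08 and 0.13. The members' ratios are thus read beside medians of 0.20 and 0.54, which are not free of the floor. The denervated members held 55235 UMIs, against 45235 untreated and 26083 sham. A floor of 10 UMIs therefore admits genes at a lower CPM through the denervated members, which favours genes that are higher there. With a floor set as an equal CPM in both libraries, the share lower than sham became 20.3%. Both comparisons share the denervated library, so their values are given side by side.

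Apoe, the apolipoprotein by which macrophages export cholesterol, was higher in the denervated members. Apoe (chr7:19696109-19699188) had 159 UMIs in the untreated, 70 in the sham and 740 in the denervated members, or 3515, 2684 and 13397 CPM. The denervated level was far above the others, which lay near each other. The log2 ratio was 1.93 (1.68 to 2.19) against untreated and 2.32 (1.96 to 2.70) against sham members, and 0.38 and −0.08 in other nuclei. The share of members with an Apoe UMI was 58.9%, 58.1% and 65.5%, against 21.4%, 22.5% and 18.6% of other nuclei. At equal depth the share of members was 57.1%, 38.5% and 67.9%, with the sham interval, 20.2 to 59.4, overlapping both others. The share of nuclei thus differed less between libraries than the level did. One denervated member gave 72 of the 740 UMIs. Without the 3 deepest members of each library the log2 ratios were 1.79 and 2.11.

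The summed level of genes of the lysosome, where engulfed material is broken down, was higher in the denervated members. Grn, whose product progranulin sustains lysosomes, had 64, 19 and 185 UMIs in the untreated, sham and denervated members, or 1415, 728 and 3349 CPM. Its log2 ratio was 1.24 (0.83 to 1.68) against untreated and 2.20 (1.52 to 2.96) against sham, with 0.24 and 0.59 in other nuclei. Grn was not in the lysosome list itself and was chosen after its values were seen. Of the 16 genes of the list, 11 had enough UMIs for the comparison with untreated members. Of these, 2 were at least 2-fold higher (Ctss and Ctsz) and 1 lower (Lipa), with a median of 0.77. That share lay below the 20.5% of all genes, while the median lay above theirs, and 5 of the 11 had an interval above 0. Against sham members, 6 of 10 were at least 2-fold higher (Lamp2, Ctsb, Ctss, Ctsz, Hexa and Npc2) and 0 lower, with a median of 1.24, against 32.5% of all genes.

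The proteases and their partners in the list showed the same order. Ctsb, cathepsin B, had 80, 27 and 179 UMIs, or 1769, 1035 and 3241 CPM in the untreated, sham and denervated members. Psap, the precursor of the saposins that help to degrade sphingolipids, had 2918, 2722 and 4961 CPM. The denervated level was the highest for both, and the sham level of Ctsb was the lowest. Hexa, a subunit of hexosaminidase, had 464, 153 and 760 CPM from 21, 4 and 42 UMIs. Lipa, the acid lipase of lysosomes, ran the other way, with 332, 153 and 127 CPM. Over the list, the summed level was 8157 CPM (7346 to 9034), 6211 (5291 to 7244) and 13434 (12484 to 14436), all 3 apart, while other nuclei had 2680, 2107 and 2672.

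The list of lipid handling genes was also higher in sum, at 7958, 8128 and 18448 CPM in the untreated, sham and denervated members (9861, 11306 and 8877 in other nuclei). Apoe gave 159 of the 360, 70 of the 212 and 740 of the 1019 UMIs of the list. Without Apoe the list had 201, 142 and 279 UMIs, or 4443, 5444 and 5051 CPM, with log2 ratios of 0.18 (−0.08 to 0.45) against untreated and −0.11 (−0.40 to 0.19) against sham members. The higher sum was thus that of Apoe. Of the genes with enough UMIs, 3 of 11 were at least 2-fold higher than in untreated members (Plin2, Apoe and Soat1) and Lipa was lower. Against sham members, 4 of 10 were higher (Plin2, Apoe, Soat1 and Pparg) and Cd36 was lower. Over all genes 20.5% and 32.5% were higher. The medians were 0.61 and 0.38, the second below the 0.54 of all genes. Pparg is an adipocyte gene of the rule. The adipocyte markers outside the rule had summed log2 ratios of 0.385 against untreated and 1.99 against sham members, and the part of such RNA was not tested. Plin2, the coat protein of lipid droplets, had 199, 192 and 453 CPM from 9, 5 and 25 UMIs, and 681, 396 and 511 CPM in other nuclei. Soat1, which esterifies cholesterol for storage, had 88.4, 76.7 and 199 CPM from 4, 2 and 11 UMIs. The Plin2 interval against sham, −0.17 to 2.98, and both Soat1 intervals held 0. Lipid-associated macrophage markers, of which 10 of 12 were listed for all 3 libraries, had a summed level of 1017, 2185 and 1666 CPM in members. Other nuclei had 1610, 2060 and 1490 CPM. The sham level was the highest in both, and members lay near other nuclei. A single denervated member gave 33 of the 92 denervated UMIs. Trem2, the receptor best known for such macrophages, had 5 UMIs in the sham and 13 in the denervated members and was not listed in the untreated table. Trem2 and Spp1 are therefore outside the sum, which speaks only for the remaining genes of the list.

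Several MHC class II genes, by which macrophages and dendritic cells show peptides to T cells, were lower in the denervated members. H2-Aa, the alpha chain of I-A, had 102, 44 and 38 UMIs in the untreated, sham and denervated members, or 2255 (1839 to 2737), 1687 (1226 to 2265) and 688 CPM (487 to 944). H2-Eb1, the beta chain of I-E, had 1304, 1802 and 670 CPM. The denervated level was the lowest for both, and its interval overlapped neither other. The log2 ratios were −1.71 (−2.29 to −1.16) and −1.29 (−1.96 to −0.63) for H2-Aa, and −0.96 (−1.60 to −0.34) and −1.43 (−2.09 to −0.78) for H2-Eb1, against untreated and sham members. Ciita, the regulator that turns these genes on, had 575, 690 and 181 CPM from 26, 18 and 10 UMIs. Its log2 ratio was −1.67 (−2.88 to −0.57) against untreated and −1.93 (−3.21 to −0.74) against sham members.

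The 2 MHC class II genes of the rule are a description only, since their UMIs chose the members. Cd74 had 185, 161 and 99 UMIs, or 4090, 6173 and 1792 CPM, and H2-Ab1 (chr17:34257689-34269419), the beta chain of I-A, had 3228, 3527 and 1684 CPM in the untreated, sham and denervated members. In the list, 3 of 6 genes with enough UMIs were at least 2-fold lower than in untreated members (H2-Aa, Cd74 and Ciita) and 5 of 6 lower than in sham members, with medians of −1.08 and −1.36, beside 13.5% and 8.12% of all genes. These counts hold the 2 genes of the rule. Of the other 4, 2 were lower than in untreated members (H2-Aa and Ciita) and 3 lower than in sham members (with H2-Eb1). The exception in both was Ctss, a protease that trims Cd74 and also counts as a lysosomal gene, with 464, 422 and 996 CPM and ratios of 1.10 and 1.24, against 1.96 and 2.39 in other nuclei. In other nuclei the list's summed level was higher in the denervated library, with log2 ratios of 0.99 and 0.37, against −0.97 and −1.23 in members. Endothelial nuclei had 14.2, 34.8 and 27.9 CPM of it, and adipocyte nuclei 16.7, 12.0 and 26.7, each chosen by the mirrored rule. The denervated level thus lay below the sham level in the first and above it in the second. All other nuclei together had 18.3, 28.1 and 36.4 CPM and members 12115, 14531 and 6192. Nuclei with exactly 3 immune UMIs that met the remaining conditions, 3, 2 and 25 by library, count among these other nuclei. Without Cd74 and H2-Ab1, the list had 217, 126 and 150 UMIs, or 4797, 4831 and 2716 CPM in members. The log2 ratio was then −0.82 (−1.13 to −0.51) against untreated and −0.83 (−1.18 to −0.48) against sham members, with 1.10 and 0.94 in other nuclei. These members had still been admitted with the help of Cd74 and H2-Ab1. Chosen by the other 7 immune genes alone, at the same limits, there were 47, 20 and 72 members. Among them H2-Aa had 94, 36 and 30 UMIs, with log2 ratios of −1.99 (−2.64 to −1.39) against untreated and −1.76 (−2.51 to −1.02) against sham members. H2-Eb1 had 52, 24 and 35 UMIs and ratios of −0.92 (−1.58 to −0.27) and −0.96 (−1.75 to −0.14). Ciita had 20, 16 and 2 UMIs and ratios of −3.67 (−6.81 to −1.625) and −4.50 (−7.66 to −2.41). The denervated level was thus the lowest for H2-Aa, H2-Eb1 and Ciita under this rule too. Ctss again ran the other way, with ratios of 1.11 and 1.03.

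The size of the MHC class II difference depended on few nuclei and on the threshold. A single untreated member held 128 of the 548 untreated UMIs of the list. Without the 3 deepest members of each library, the summed log2 ratio was −0.40 against untreated and −1.18 against sham. With members thinned to 500 UMIs it was −0.46 and −1.54. Among members with at least 6 immune UMIs it was −0.74 and −1.09. At equal depth, the share of members with an H2-Aa UMI was 33.3%, 46.2% and 15.1% in the untreated, sham and denervated libraries, and that with an H2-Eb1 UMI 31.0%, 50% and 13.2%. The denervated share was the lowest for both, but its interval overlapped that of untreated members for both genes and that of sham members for H2-Aa.

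Some markers of resident macrophages were lower as well, from fewer UMIs. The haemoglobin scavenger receptor Cd163 (chr6:124304656-124330527) had 30, 16 and 10 UMIs in the untreated, sham and denervated members, or 663 (448 to 947), 613 (351 to 996) and 181 CPM (86.8 to 333). Its log2 ratio was −1.87 (−3.07 to −0.80) against untreated and −1.76 (−3.06 to −0.53) against sham. At equal depth Cd163 was detected in 31.0%, 11.5% and 9.43% of members, the sham and denervated shares being close, and its log2 ratio was −2.00 against untreated and −0.76 against sham. The hyaluronan receptor Lyve1 had 12, 6 and 3 UMIs, and the lectin receptor Cd209f had 8, 5 and 1. All 3 were lowest in the denervated members. Of the list of 15 resident markers, 0 of 9 genes with enough UMIs were at least 2-fold higher and 3 lower than in untreated members (Lyve1, Cd163 and Colec12), with a median of −0.52. Against sham members 2 of 7 were higher (Folr2 and Gas6) and Cd163 was lower, with a median of −0.35. Over all genes, 20.5% were higher and 13.5% lower than in untreated members, and 32.5% and 8.12% than in sham members, so the count higher than sham lay near that of all genes. The list's summed level was 4200 CPM (3624 to 4842), 3527 (2843 to 4326) and 2535 (2132 to 2991). With ambient RNA subtracted, its ratio against sham turned above 0, though the smaller totals alone raise such ratios.

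Other macrophage markers outside the rule gave no single order. C1qa had a log2 ratio of −0.08 (−0.74 to 0.59) against untreated members. Adgre1, which encodes the macrophage antigen F4/80, had 35, 8 and 17 UMIs, or 774, 307 and 308 CPM in the untreated, sham and denervated members. Its log2 ratio was −1.33 (−2.26 to −0.46) for denervated against untreated members, so the untreated level stood above both others. Of the list of 15 macrophage markers outside the rule, 1 of 13 genes with enough UMIs was at least 2-fold higher (Ms4a7) and 2 lower (Adgre1 and Cd163) than in untreated members, with a median of −0.05. Against sham members 2 of 12 were higher (Cx3cr1 and Ms4a7) and Cd163 was lower, with a median of 0.18. The shares higher lay below the 20.5% and 32.5% of all genes, and those lower near the 13.5% and 8.12%. Maf, a transcription factor of resident macrophages, had 1238, 959 and 1503 CPM, with intervals of the ratio that held 0 against both. Zeb2, a repressor that macrophages need for their identity, had 3670, 2799 and 3096 CPM, also with 0 inside both intervals. Per nucleus, at least 1 UMI of H2-Aa, H2-Ab1, H2-Eb1 or Cd74 and at least 1 of Mrc1, Cd163, F13a1 or Stab1 were found together in 32 of 56 untreated, 19 of 31 sham and 26 of 84 denervated members. UMIs of the scavenger group alone were found in 17, 2 and 37 members, and of the MHC group alone in 6, 9 and 13. Most of these genes are in the rule, and the shallower denervated members have fewer UMIs to show both.

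Other functions of macrophages were described by their lists, most of which had few genes past 2-fold. Of the efferocytosis list, which holds receptors and bridges for dying cells, 0 of 6 were higher and 2 lower than in untreated members (Pros1 and Dock1), and 1 of 5 was higher than in sham members (Gas6). Of the Fc receptor and immune signalling list, 1 of 10 was higher (Fcer1g) and 2 lower (Fcgr3 and Btk) against untreated members, and 2 of 8 were higher (Fcer1g and Ptpn6) against sham members. Of the leukocyte cytoskeleton list, 0 of 17 were higher and 2 lower (Itga4 and Vav1), and 3 of 16 were higher (Lcp1, Myo1f and Ptpn6) and 1 lower (Wdfy4). The shares higher in these 3 lists thus lay below the 20.5% and 32.5% of all genes. Of all genes 13.5% were lower than in untreated members and 8.12% lower than in sham members, so the efferocytosis and Fc receptor lists had larger shares lower against untreated, from 2 genes each. In the iron list Hmox1 was higher and Cd163 lower against both libraries, and the iron exporter gene Slc40a1, with 11, 3 and 2 UMIs, was lower against untreated members. In the list of macrophage transcription factors, Runx1 and Cebpb were higher against both, as 2 of 11 and 2 of 10 genes with enough UMIs, and Bach2 was lower against untreated members. These shares lay below those of all genes. The alternative activation list had 4532, 4447 and 3892 CPM in members. The list of secreted factors for vessels, nerves and adipocytes had 2122, 2569 and 1937 CPM in members and 2800, 3197 and 2725 in other nuclei. Both had overlapping intervals in the members of all 3 libraries. Mrc1 and Pparg of the alternative activation list, and Dock2 of the efferocytosis and cytoskeleton lists, are genes of the rule. The values of these lists thus describe the selection in part. Most sham Retnla UMIs of the alternative activation list came from 1 nucleus.

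By the fixed ranking, 179 of 1628 genes were at least 2-fold higher in the denervated members than in both others, and 96 were at least 2-fold lower. The 10 with the largest smaller ratio were Hp, Cebpb, Ebf2, Ier5, Hmox1, Anxa3, Bcl3, Ergic1, Wfdc17 and Cox5a. Against sham, Anxa3 and Ergic1 were at −0.61 with members thinned, and Ergic1 at −0.41 without endothelial or adipocyte UMIs of the rule. These values match a sham count of 0 taken as 3 UMIs, so they are bounds. Cebpb (chr2:167688915-167690418), a transcription factor of myeloid activation and of adipogenesis, had 6, 3 and 51 UMIs, or 133 (48.7 to 289), 115 (23.7 to 336) and 923 CPM (688 to 1214) in the untreated, sham and denervated members. The log2 ratio was 2.80 (1.58 to 4.31) and 3.01 (1.38 to 5.33), and in other nuclei 0.15 and 0.32. It was detected in 7.14%, 6.45% and 26.2% of members, and at equal depth in 2.38%, 0% and 26.4%. The untreated and sham shares lay below those of other nuclei, which were 19.6%, 13.5% and 15.5%. Ier5, an early response gene, had 4, 3 and 35 UMIs, or 88.4, 115 and 634 CPM.

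Of the remaining 8, Hmox1, the haem oxygenase by which macrophages recycle iron, had 2, 2 and 23 UMIs, or 44.2, 76.7 and 416 CPM. Its log2 ratio was 3.23 (1.22 to 6.36) against untreated and 2.44 (0.42 to 5.57) against sham, and 1.07 against both in other nuclei. Wfdc17, a small secreted protein of macrophages, had 1, 1 and 11 UMIs, and Bcl3, a regulator of NF-kB, and the annexin gene Anxa3 had the same numbers. Their intervals against sham held 0. Hp, which encodes haptoglobin, had 1, 1 and 30 UMIs in members, and its level of 543 CPM in denervated members lay near the 608 CPM of all other denervated nuclei. Ebf2, a transcription factor of BAs, and the respiratory chain gene Cox5a were also lower in denervated members than in other denervated nuclei (253 against 947 CPM, and 217 against 385). The adipocyte markers outside the rule (Ucp1, Fasn and 8 others) had 1636, 537 and 2136 CPM in the members and 9675, 5150 and 8725 CPM in other nuclei. The part of such RNA in these 4 genes, Ergic1 included, was not tested.

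The 10 lowest in the denervated members were Mgl2, Gm26870, Cadm1, Fnbp1l, Dock11, Rasal2, St3gal6, 5031425E22Rik, Add1 and Bank1. Mgl2 (chr11:70130329-70137550), a galactose-binding lectin of alternatively activated macrophages and of some dendritic cells, had 23, 12 and 2 UMIs, or 508 (322 to 763), 460 (238 to 804) and 36.2 CPM (4.38 to 131) in the untreated, sham and denervated members. Its log2 ratio was −3.81 (−6.94 to −1.80) against untreated and −3.67 against sham members, and 0 lay outside both intervals. At equal depth it was detected in 21.4%, 19.2% and 3.77% of members. Bank1, a scaffold of B cell receptor signalling, had 29, 12 and 5 UMIs, or 641, 460 and 90.5 CPM, and was found in 17, 6 and 4 members. At equal depth it was detected in 26.2%, 7.69% and 3.77%, so the sham and denervated shares, from 2 members each, lay near each other. The denervated CPM was below both others for Mgl2 and for Bank1. Bank1 gave 29 of 57, 12 of 32 and 5 of 19 UMIs of the B cell list, whose summed level was 1260, 1227 and 344 CPM, while Ms4a1, which encodes CD20, had 1, 2 and 0 UMIs. Dock11, an activator of small GTPases in leukocytes, had 14, 7 and 2 UMIs. The lincRNA Gm26870 had 9, 17 and 1 UMIs, of which a single nucleus gave 8 untreated and 17 sham UMIs.

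**Figure D3:**
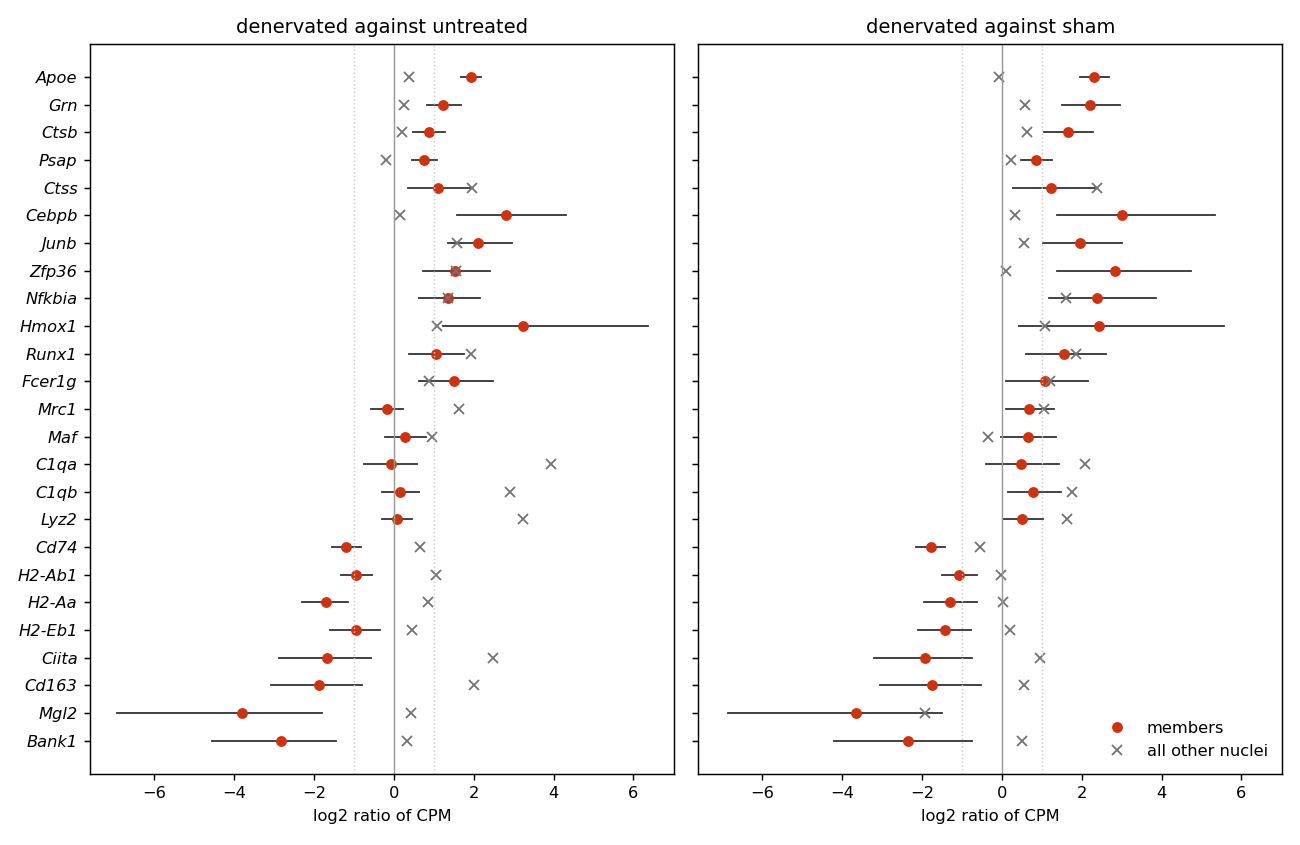
Log2 ratio of CPM of 25 genes in denervated members against untreated (left) and sham (right) members, red points with exact 95% intervals for counting error as lines, and the same ratio in all other nuclei as grey crosses. Dotted lines mark a log2 ratio of 1 and −1. Apoe, at 1.93 and 2.32, and Cebpb, at 2.80 and 3.01, stand right of their crosses, and the MHC class II genes stand left.

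Several immediate early genes, which answer stimulation within minutes, were higher in the denervated members. Junb, a subunit of the AP-1 transcription factor, had 17, 11 and 90 UMIs, or 376 (219 to 602), 422 (211 to 755) and 1629 CPM (1310 to 2003) in the untreated, sham and denervated members. Zfp36, which destabilises cytokine mRNA, had 376, 153 and 1086 CPM. For both the denervated interval lay above the other 2. In other nuclei the log2 ratios were 1.57 and 0.56 for Junb and 1.56 and 0.11 for Zfp36, against 2.12 and 1.95 and 1.53 and 2.82 in members. In the list of 18, 7 of 15 genes with enough UMIs were at least 2-fold higher and 0 lower against untreated members, with a median of 0.99. Against sham members, 7 of 15 were higher and Atf3 lower, with a median of 0.33, under the 0.54 of all genes. Over all genes 20.5% were higher than in untreated and 32.5% higher than in sham members. The summed level was 5416, 6288 and 11225 CPM in members. In endothelial nuclei, chosen by the mirrored rule, it was 4932, 4872 and 7952 CPM. These genes also respond to tissue handling, and the part of handling in the difference was not tested.

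NF-kB is the main switch of inflammatory genes. Nfkbia, its feedback inhibitor, had 21, 6 and 66 UMIs, or 464, 230 and 1195 CPM in the untreated, sham and denervated members. The ratio was 1.36 (0.64 to 2.15) and 2.38 (1.18 to 3.87), and in other nuclei 1.35 and 1.60. The difference against untreated members was thus about that of all other nuclei. Of the chemokines, 4 of 7 genes with enough UMIs were at least 2-fold higher than in untreated members (Ccl4, Ccl7, Ccl8 and Cxcl1) and 6 of 7 higher than in sham members, beside 20.5% and 32.5% of all genes. The summed log2 ratio of the list was 0.68 (0.32 to 1.04) against untreated and 1.93 (1.31 to 2.60) against sham members, and 1.15 and 0.08 in other nuclei. Against untreated, the ratio was thus smaller in members than in other nuclei. Ccl4, which attracts monocytes and T cells, had 16, 0 and 41 UMIs, from 3, 0 and 11 nuclei. Cxcl2, which attracts neutrophils, had 23, 0 and 35 UMIs, and a single untreated member gave 15 of its 23. Ccl8 had 0, 0 and 15 UMIs, from 4 denervated nuclei. A count of 0 allows up to 3 UMIs over all members of a library, and against that floor Ccl8 had a log2 ratio of at least 2.03 against untreated and at least 1.24 against sham members. The lower limits of the exact intervals were 1.56 and 0.76. Cytokine genes were sparse, with 2, 1 and 7 UMIs of Il1b and 2, 0 and 9 of Tnf.

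Interferon-stimulated genes had a summed level of 973 CPM (707 to 1306), 1073 (713 to 1552) and 1937 (1588 to 2341) in the untreated, sham and denervated members. In other nuclei they had 545, 687 and 472 CPM. The list was highest in the denervated library among members. Other nuclei pool cell types whose numbers differed, with 4738, 4803 and 1536 endothelial nuclei. In endothelial nuclei the list had 1228, 1331 and 1029 CPM, and in adipocyte nuclei 241, 277 and 315 CPM, so it was lowest in the denervated library in the first and highest there in the second. Of 4 genes with enough UMIs, 3 were at least 2-fold higher than in untreated members (Rsad2, Ifi204 and Rnf213), with counts of 4 and 12 UMIs for Rsad2 in the untreated and denervated members. All 3 of these intervals held 0. Against sham members 3 of 4 were higher (Rsad2, Ifi204 and Ifi207), with 1 or 2 sham UMIs each, beside 20.5% and 32.5% of all genes. Runx1, a transcription factor of blood cells, had 27, 11 and 68 UMIs, or 597, 422 and 1231 CPM. Fcer1g, the signalling chain shared by Fc receptors, had 14, 11 and 49 UMIs, or 309, 422 and 887 CPM. Both were highest in the denervated members, and both were also higher in other nuclei of that library, with log2 ratios between 0.89 and 1.93.

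**Figure D4:**
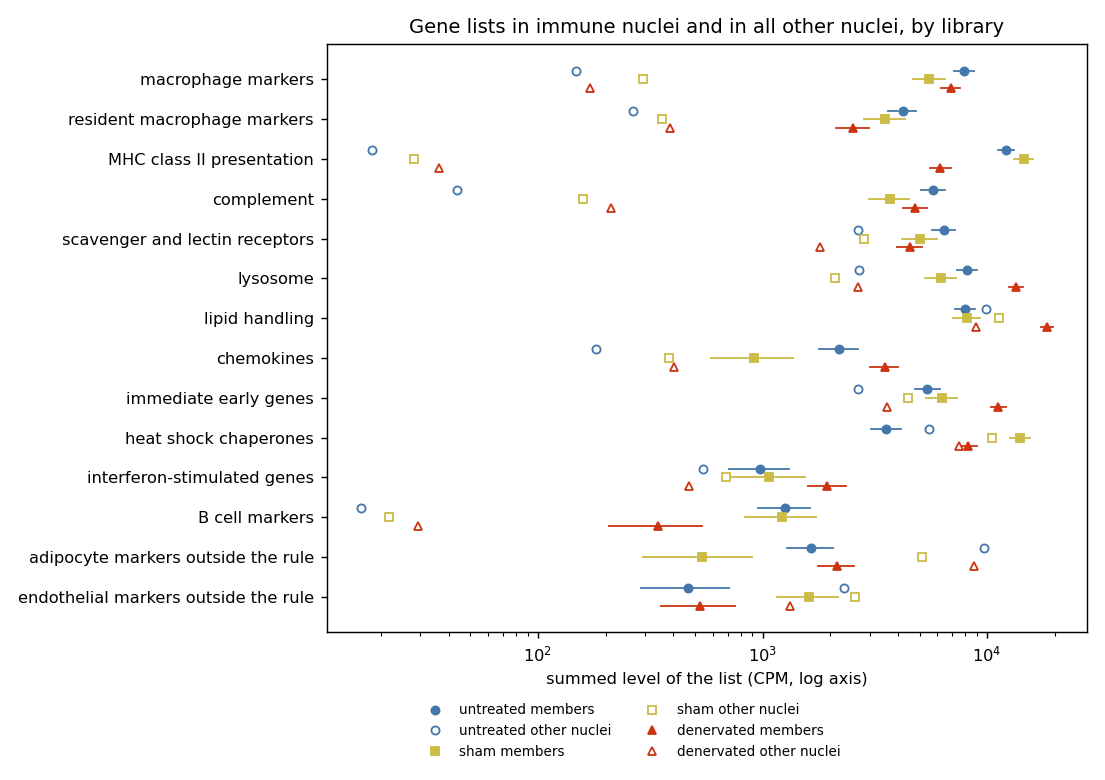
Summed level of gene lists, in CPM on a log axis, with filled symbols for members and open symbols for all other nuclei of each library. Lines are exact 95% Poisson intervals for counting error. The denervated members lie highest for lysosome (13434 CPM) and lipid handling (18448 CPM, of which Apoe gave 13397) and lowest for MHC class II presentation (6192 CPM, with the rule genes Cd74 and H2-Ab1 counted).

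Heat shock chaperones were higher in the sham than in the untreated members. Of 1074 genes with at least 10 UMIs in the members of either library, 90 (8.38%) were at least 2-fold higher in the sham members and 260 (24.2%) at least 2-fold lower, with a median log2 ratio of −0.34. With a floor set as an equal CPM these shares were 17.2% and 13.4%, so the excess of lower genes was not seen with that floor. In the list of chaperones, which refold proteins under stress, 7 of 8 genes with enough UMIs were at least 2-fold higher, with a summed level of 3559, 14032 and 8256 CPM in the untreated, sham and denervated members and 5483, 10494 and 7493 CPM in other nuclei. Hsp90aa1 had 508, 2684 and 2209 CPM in members. Hspa1a and Hspa1b, near-identical copies whose reads may be split between them, had 376, 2377 and 1032 CPM and 398, 2760 and 1177 CPM. The sham level was the highest in members and in other nuclei alike.

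The genes highest in sham against untreated members by the fixed ranking were Myo1d, Kank3, Car4, Sorbs3 and Sp100, with 1 or 2 untreated and 10 to 17 sham UMIs each. Kank3 and Car4, both known from capillary ECs, had 460 and 383 CPM in sham members against 452 and 358 CPM in other sham nuclei. The 12 endothelial markers outside the rule had a summed level of 464, 1610 and 525 CPM in the untreated, sham and denervated members (2314, 2571 and 1319 in other nuclei), with 5, 3 and 4 of them at 0. The 12 pericyte and smooth muscle markers had 155, 959 and 109 CPM (1047, 2573 and 949), with 7, 3 and 8 at 0. RNA of vessel cells was thus highest in the sham members, and its part in the differences was not tested. The 5 genes lowest in sham members were Rap1gds1, Trps1, Pstpip2, Gas6 and Akap9, each with 1 sham UMI. Gas6, a bridge between dying cells and their receptors on macrophages, had 22, 1 and 24 UMIs, or 486, 38.3 and 434 CPM. Its log2 ratio of sham against untreated was −3.66 (−9.03 to −1.04), and −0.96 in other nuclei.

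The study asks which cells make stem cell factor, encoded by Kitl (chr10:100015630-100100416), and which carry its receptor Kit. In reporter mice it detected the factor in most ECs and macrophages of BAT. Deleting the gene in ECs lowered the protein in BAT, white adipose tissue and plasma, while deleting it in macrophages left the protein unchanged in adipose tissue and plasma. The study infers that the factor in BAT comes almost only from ECs rather than macrophages. Those are measures of a reporter and of protein, unlike the RNA given here. Kitl had 11, 13 and 7 UMIs in the untreated, sham and denervated members, or 243 (121 to 435), 498 (265 to 852) and 127 CPM (51.0 to 261). Endothelial nuclei had 1194, 1071 and 1078 CPM, and adipocyte nuclei, chosen by the mirrored rule, had 32.4, 54.8 and 49.0. The members lay between them in every library. In barcodes with under 200 detected genes Kitl had 673, 483 and 1336 CPM, and the part of such free RNA in the members' UMIs was not tested. Kit had 1, 1 and 1 UMIs in the members. The noradrenaline transporter gene Slc6a2 had 0 UMIs in the untreated and denervated members and is not listed in the sham table.

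Among themselves, the members fell into 2 clusters by Louvain clustering without the rule genes, with 106 nuclei in cluster 1 and 65 in cluster 2. Both held nuclei of all 3 libraries, with 40, 22 and 44 untreated, sham and denervated nuclei in cluster 1 and 16, 9 and 40 in cluster 2. Their median depth was 562 and 780 UMIs, and the macrophage list led in 91 and 63 of them with the rule genes counted, and in 58 and 52 without them. Malat1, a long noncoding RNA that stays in the nucleus, had 25261 CPM in cluster 1 and 10504 in cluster 2. Cluster 2 had more RNA of the lysosome list, 15652 against 5458 CPM, and of Apoe, 15266 against 1397 CPM. The clusters were drawn from these same genes, so the contrasts are a description.

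Within the clusters the libraries kept some of the order above. In cluster 2, Apoe had 6411, 7463 and 22068 CPM in the untreated, sham and denervated nuclei, and in cluster 1 it had 1719, 554 and 1662. The denervated level was thus the highest in cluster 2 and lay near the untreated one in cluster 1. The MHC class II list without the rule genes Cd74 and H2-Ab1 had 7740, 6095 and 3746 CPM in cluster 2, from 134, 49 and 119 UMIs, and 2973, 4268 and 1321 CPM in cluster 1, from 83, 77 and 31 UMIs, so it was lowest in the denervated nuclei of both. The lysosome list had 12072, 8955 and 19297 CPM in cluster 2 and 5730, 4988 and 5497 in cluster 1, so its denervated level was the highest only in cluster 2. Lipid handling had 12014, 14801 and 28080 CPM in cluster 2 and 5444, 5154 and 5411 in cluster 1. Mrc1 had 1040, 995 and 1102 CPM in cluster 2 and 2865, 1275 and 3025 in cluster 1.

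**Figure D5:**
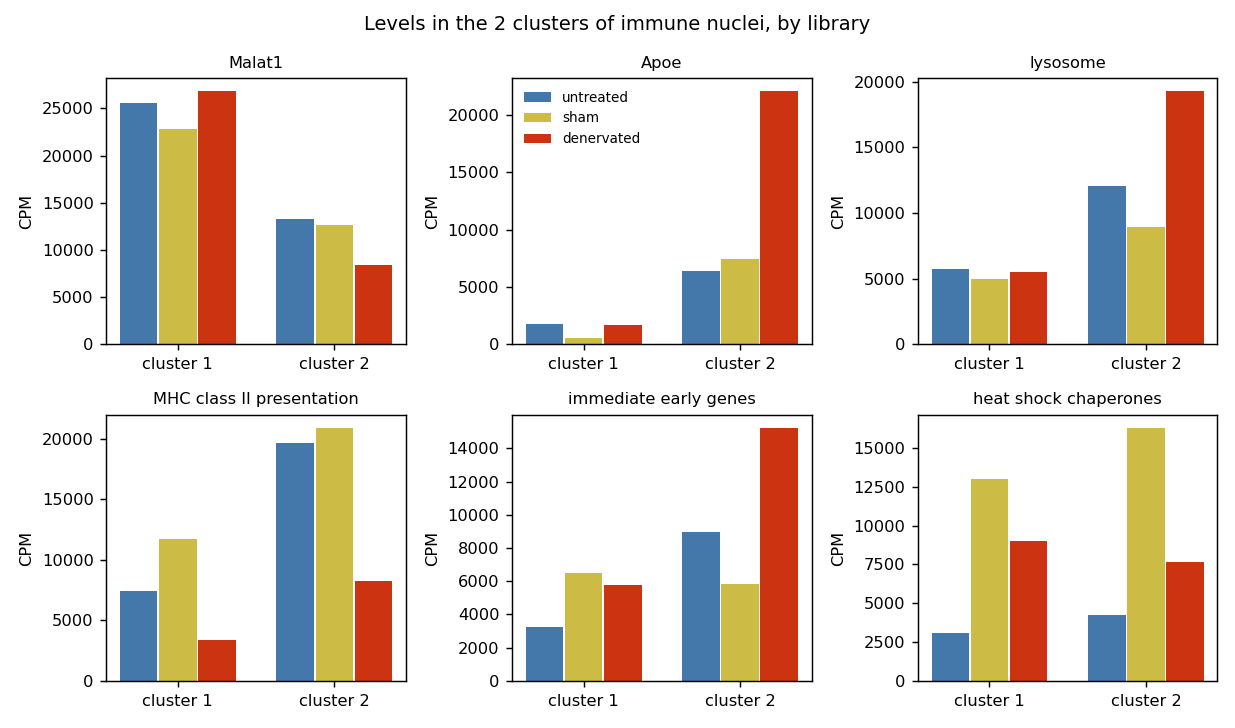
Level of Malat1, Apoe and 4 gene lists in the 2 clusters of members, in CPM on an axis from 0, 1 bar a library. Bars have no replicate error, since each is 1 library. Apoe in cluster 2 reached 22068 CPM in the denervated nuclei against 6411 and 7463, and Malat1 was lower in cluster 2 in every library. The MHC class II bars count the rule genes Cd74 and H2-Ab1.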

How the data were processed

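The data were single-nucleus RNA libraries of mouse BAT, 1 each for the untreated, sham and denervated condition, as grouped by the labels. The authors deposited raw UMI counts for each gene in each nucleus, from the BD WTA Rhapsody Analysis Pipeline (version 1.9-nuclei, with GRCm38 and GENCODE annotation, as written in the table headers of the untreated and the denervated library). The sham table has no header, and the labels' build field names a human build, which the mouse gene symbols contradict. The steps the authors ran after these counts (DIEM for debris, decontX for ambient RNA and Seurat 4.0.6) were not repeated.

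The libraries held 14971579, 14725864 and 9420030 UMIs in 13707, 15368 and 15822 barcodes (untreated, sham, denervated). Members were selected by the UMIs of the 3 gene groups, and no doublet caller was run. The members and the gene lists were chosen with earlier results of these data known. UMIs were summed over members and over all other kept nuclei and divided by the total over all genes to give CPM, and only the 21214 genes listed in all 3 tables were compared between libraries. Intervals were exact (Poisson for CPM, Clopper-Pearson for shares, conditional binomial for ratios, 95%) and cover counting error only. Since each condition is 1 library, nothing was tested. A gene counted as higher or lower at a fold of 2, with a floor of 10 UMIs in either library, or of 5 in every library for members against other nuclei. A count of 0 was taken to allow 3 UMIs.

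Named genes were the genes of the rule, the 20 with the largest smallest ratio to other nuclei, up to 10 in each direction in denervated against both other libraries and 5 in sham against untreated, the most abundant or 2-fold different genes of each list, and Kitl and Kit. Spi1, Grn and Zeb2, where they fall outside that rule, were named after their values were seen. Results for some genes are not reported here. Alternatives changed the limits on genes, mitochondrial UMIs and rule UMIs, thinned nuclei to 500 UMIs, subtracted ambient RNA (the profile of barcodes with under 200 genes, scaled to the adipocyte UMIs of the members), and, added after seeing the data, used an equal CPM floor, left out the 3 deepest members of each library, left Apoe or the rule genes out of a list, or left Cd74 and H2-Ab1 out of the rule for the MHC class II genes. Positions are from GENCODE and promoters from RefSeq (GRCm38.p6). The ratio code was tested on simulated data. Software was Python 3.11.15, numpy 2.4.6, scipy 1.17.1, pandas 2.3.3, python-igraph 0.11.9 and matplotlib 3.10.9.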

Additional observations from a re-analysis of the deposited data

Results flagged for a closer look

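For 5 gene lists, the summed ratio of denervated to untreated and to sham members lay on the other side of 0 from that in all other nuclei of the same libraries, with 0 outside every interval. All lists but those of the rule were screened, and these 5 are the ones that met this criterion in both comparisons. That they meet it is therefore not a result. These differences were not tested, since each condition is 1 library, and the pair of comparisons shares the denervated library. Other nuclei pool cell types whose numbers differed, with 4738, 4803 and 1536 endothelial nuclei (untreated, sham, denervated). In denervated endothelial nuclei the MHC class II list was below sham (27.9 against 34.8 CPM). In denervated adipocyte nuclei lipid handling was above untreated (9557 against 9222 CPM) and resident markers below sham (341 against 351). Of the 5, only the B cell list kept the pool's side in both types. For MHC class II presentation, the log2 ratio in members minus that in other nuclei was −1.962 against untreated (−0.97 in members, 0.99 in other nuclei) and −1.604 against sham (−1.23 and 0.37). That list holds Cd74 and H2-Ab1, which chose the members, and without them the differences were −1.92 (−0.82 and 1.10) and −1.77 (−0.83 and 0.94). For the resident macrophage markers it was −1.277 against untreated (−0.73 and 0.55) and −0.6035 against sham (−0.48 and 0.13). With ambient RNA subtracted, the ratio of these markers in members turned above 0 against sham. For the B cell markers it was −2.712 against untreated (−1.87 and 0.84) and −2.265 against sham (−1.83 and 0.43), from 57, 32 and 19 UMIs in untreated, sham and denervated members, of which Bank1 gave 29, 12 and 5. For lipid handling it was 1.365 against untreated (1.21 and −0.15) and 1.532 against sham (1.18 and −0.35), and without Apoe 0.352 (0.18 and −0.17) and 0.250 (−0.11 and −0.36), with intervals in members that held 0. For interferon-stimulated genes it was 1.202 against untreated (0.99 and −0.21) and 1.393 against sham (0.85 and −0.54), while in adipocyte nuclei alone the list was highest in the denervated library, at 315 CPM against 241 and 277.

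Barcodes with under 200 detected genes, which the comparisons do not use, also held UMIs of the 9 immune genes of the rule. Their level there was 152.5 CPM in the denervated library, against 86.6 in the untreated and 90.5 in the sham library, and the denervated library had 5358 such barcodes against 1871 and 988.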

How the results depend on the processing

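No paired analysis was possible because each condition is 1 library. The number of members followed the limits of the rule. With at least 500 detected genes there were 29 untreated, 19 sham and 34 denervated members, without any endothelial or adipocyte UMI of the rule 32, 13 and 44, and with at least 6 immune UMIs 49, 26 and 55. Thinning each nucleus to 500 UMIs left 44 denervated members, a limit of 10% mitochondrial UMIs left 19 sham members, and the rule without Cd74 and H2-Ab1 left 20. The share of genes at least 2-fold lower in denervated than in sham members was 23.2% with ambient RNA subtracted, 12.7% with at least 500 detected genes and 20.3% with an equal CPM floor, and that against untreated members was 24.9% with ambient RNA subtracted. The share higher in sham than in untreated members was 13.7% with ambient RNA subtracted, 17.2% with an equal floor and 5.41% without endothelial or adipocyte UMIs, and the share lower was 13.4% with an equal floor. In denervated against sham members, Anxa3 and Ergic1 turned to −0.61 and Pstpip2 to −0.027 with members thinned, and Ergic1 to −0.41 without endothelial or adipocyte UMIs. Rasal2 turned to 0.075 in denervated against untreated members with ambient RNA subtracted, and Ccl4 to 0.28 in sham against untreated members with members thinned. The thinned turn of Ccl4 was a bound, since 0 of 26 thinned sham members held a Ccl4 UMI and 0 was taken as 3 UMIs. Anxa3 and Pstpip2 had 1 sham UMI before thinning, and their turns came from the same floor. Both turns of Ergic1 match a sham count of 0 taken as 3 UMIs, so they too are bounds. The cause of the Rasal2 turn was not tested. The summed lipid handling genes turned to −0.11 in denervated against sham members without Apoe, and the macrophage list led in 64.3% of members without the genes of the rule, which leave fewer UMIs. Of all 1902 values of single genes and lists under the alternatives, 1688 kept their direction and side of the fold or moved within their intervals, 207 moved and 7 reversed. A turn of direction counted as reversed only for a value of at least 2-fold. Of the 1688, 159 were ratios of the leading genes to other nuclei, which move only if they fall below 2-fold. Genes with few UMIs have wide intervals, within which most moves count as none. The tally therefore does not measure how firm a single value is. The turn of the resident macrophage markers against sham, given next, was under that size and counts as moved. With ambient RNA subtracted, the ratios against untreated and sham became 2.51 and 3.08 for Apoe, −0.42 and −0.53 for the MHC class II list and −0.27 and 0.12 for the resident macrophage markers. The smaller totals alone add 0.56 and 0.71 to a gene from which nothing is subtracted, so these moves say nothing of ambient RNA in these genes. Ambient subtraction scaled to adipocyte UMIs left 31890 of 45235, 20436 of 26083 and 26463 of 55235 member UMIs (untreated, sham, denervated).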
